A study of Homo sapiens with 2 samples.

Results

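Solute carrier genes, the genes whose symbols begin with SLC and a family number, were followed in A549 cells treated with TGF-β. A549 cells derive from a human lung cancer of epithelial origin, and TGF-β is a secreted signal under which many epithelial cells lose their junctions and deposit matrix. Cells exposed during 12 h to TGF-β at 1 ng/ml and control cells without it were each measured on 1 Affymetrix array, so no difference below has a replicate check and no p-value can be given. The values are MAS5 signals, which are linear intensities, and fold changes divide the TGF-β signal by the control signal. Only probe sets annotated with a single gene symbol were used. Of 376 SLC symbols with such a probe set, 200 were kept. Each was chosen by a probe set whose mean signal over the TGF-β and control arrays was at least 100. Each gene was represented by its brightest probe set. The signal that chose the members is brightness, and both signals of all 200 genes were above the background level of their array, which was 56.6 with TGF-β and 45.8 in the control. The members just inside the limit were SLC2A8, with 88.0 with TGF-β and 114 in the control, and SLC68A1, with 99.3 with TGF-β and 103 in the control. Just outside it were SLC25A21, with 89.0 with TGF-β and 110 in the control, and SLC22A14, with 99.3 with TGF-β and 96.9 in the control. The 200 genes belong to 52 families, 193 encode proteins, and 7 are noncoding RNAs or pseudogenes named after a carrier. The proteins of SLC7A6OS, SLC2A4RG and SLC4A1AP are likewise named after a carrier and are not carriers themselves.

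Solute carriers are membrane proteins that move small molecules across the plasma membrane, the membranes of organelles or the inner mitochondrial membrane. Some let a substrate run down its gradient, some exchange one substrate for another, and others are driven by gradients of sodium or protons. Together they set the supply of glucose, amino acids, nucleotide sugars, metals, sulfate and vitamins, which in lung epithelial cells serve growth, fluid balance and the building of glycoproteins and proteoglycans.

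Few solute carrier genes differed between the arrays by a factor of 2. SLC35F3, SLC26A2, SLC16A4 and SLC25A37 were at least 2-fold higher, which is 4 of 200 members or 2.0%, against 3.07% of the 10558 genes with the same signal limit. SLC16A7 and SLC25A25 were at least 2-fold lower, which is 2 members or 1.0%, against 1.58% of all genes. Both shares were near those of all genes, and no result about the members is read from these counts. At 1.5-fold, 19 members (9.5%) were higher, against 7.7% of all genes, and 17 (8.5%) were lower, against 6.38%. The median log2 fold change of the members was -0.05 and that of all genes -0.03. For 152 members, or 76.0%, the log2 fold change lay within 0.5 of 0, and for all genes this share was 81.8%. The spread of log2 fold changes over the 500 probe sets nearest in signal, which describes probe sets rather than replicates, had a median of 0.46 for the 50 dimmest members and 0.25 for the 50 brightest.

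**Figure D1:**
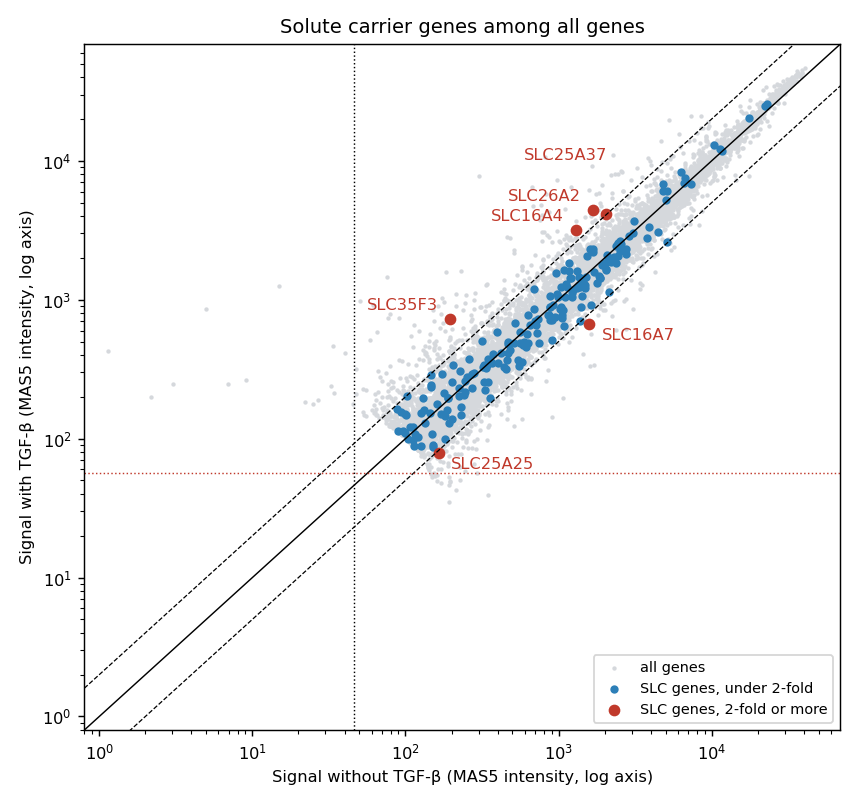
MAS5 intensities of 10558 genes on log axes, from the TGF-β array on the y axis and the control array on the x axis. Blue points are SLC genes under 2-fold, red points the 6 SLC genes at 2-fold or more, the diagonal stands for equal signals, dashed lines for a 2-fold difference, and dotted lines the background level of 56.6 for the TGF-β array and 45.8 for the control array. SLC35F3, at 732 with TGF-β and 196 in the control, lies farthest from the line of equal signals among the SLC genes.

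The cells carried the keratins of an epithelial line, with KRT18 at 38248 with TGF-β and 33810 in the control. Of 9 measured markers of fibroblasts, immune cells and endothelium, none had a mean signal of 100 and none was exactly at 0. The 9 lay between 3.11 and 74.8 with TGF-β and between 1.33 and 56.4 in the control. They summed to 302 with TGF-β and 246 in the control. CD3E and PECAM1 were above background on both arrays, at 74.8 and 65.4 with TGF-β, against 48.8 and 56.4 in the control. DCN was above background only in the control, at 47.5, and the rest were below it on both arrays. All 4 measured genes of a short list of known TGF-β responders were at least 2-fold higher, among them COL1A1 at 10680 with TGF-β and 821 in the control.

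The promoters of 4 of the 6 members that passed 2-fold are shown so that the sequences in front of the changed genes can be read beside their values. They are the 250 bases before the gene start that RefSeq gives on GRCh38.p14, and those of SLC35F3 and SLC25A37 are not shown. SLC26A2 lies on the plus strand at chr5:149960508-149960757, SLC16A4 on the minus strand at chr1:110391027-110391276, SLC16A7 on the plus strand at chr12:59689120-59689369 and SLC25A25 on the plus strand at chr9:128098257-128098506. Capitals mark CAGAC or its reverse complement GTCTG, the core that Smad proteins are known to bind.
SLC26A2: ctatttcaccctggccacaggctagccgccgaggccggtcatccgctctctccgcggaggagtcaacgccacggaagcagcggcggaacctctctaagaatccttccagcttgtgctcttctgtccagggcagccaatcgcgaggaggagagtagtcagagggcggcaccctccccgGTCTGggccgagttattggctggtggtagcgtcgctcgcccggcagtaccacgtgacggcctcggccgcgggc
SLC16A4: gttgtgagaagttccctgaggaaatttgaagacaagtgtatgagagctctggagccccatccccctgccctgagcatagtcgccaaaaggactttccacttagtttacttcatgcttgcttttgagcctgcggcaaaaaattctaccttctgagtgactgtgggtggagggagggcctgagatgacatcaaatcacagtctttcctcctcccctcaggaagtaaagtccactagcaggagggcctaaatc
SLC16A7: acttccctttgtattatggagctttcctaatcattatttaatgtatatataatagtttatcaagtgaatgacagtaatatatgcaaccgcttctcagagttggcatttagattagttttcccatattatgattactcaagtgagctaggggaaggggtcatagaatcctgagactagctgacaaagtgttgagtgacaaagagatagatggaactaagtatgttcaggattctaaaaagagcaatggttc
SLC25A25: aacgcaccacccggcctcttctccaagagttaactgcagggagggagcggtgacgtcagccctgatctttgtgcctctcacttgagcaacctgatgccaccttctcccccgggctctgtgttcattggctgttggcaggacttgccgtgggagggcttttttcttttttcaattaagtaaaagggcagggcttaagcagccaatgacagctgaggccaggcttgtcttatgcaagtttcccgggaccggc
CAGAC was found on either strand in 37.8% of 27305 such promoters and in 62 of the 168 members that matched a promoter by gene identifier, or 36.9%, and in 35.4% of the promoters of genes with the same signal limit. It occurred 1 time in front of SLC26A2 and was not in the windows of SLC16A4, SLC16A7 or SLC25A25. TGACG, the core of the element bound by CREB-type factors, was searched in the same way and did not overlap a marked CAGAC match. In front of SLC25A25 it was found on both strands of a single palindrome, in which the matches overlap, and in front of SLC26A2 it was found 1 time. It was in 21.7% of all promoters, in 30.8% of the 8763 matched promoters of genes with the same signal limit and in 29.2% of the members' promoters. The GC box GGGCGG, bound by Sp1-type factors, was found in 42.3% of all promoters, in 68.1% of those of genes with the same signal limit and in 69.6% of the members' promoters, and 1 time in front of SLC26A2. A match is a run of letters and not a binding site. The GC share of the 250 bases was 66.0% for SLC26A2, 49.6% for SLC16A4, 55.2% for SLC25A25 and 35.2% for SLC16A7.

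SLC35F3 had the largest rise among the members. It belongs to the SLC35 family, whose best known members bring nucleotide sugars into the Golgi and ER. It was classed by that family number and not by its own substrate. Its signal was 732 with TGF-β and 196 in the control, a 3.73-fold rise, or 1.90 on the log2 scale, where the spread at this brightness was 0.32. A further SLC35F3 probe set was below background on both arrays, at 10.8 with TGF-β and 29.7 in the control, so the rise rests on a single probe set.

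SLC26A2, the plasma membrane exchanger that supplies sulfate for the sulfation of proteoglycans, had a signal of 4457 with TGF-β and 1687 in the control. This is a 2.64-fold rise, or 1.40 on the log2 scale. Its other probe sets read 1950 and 1758 with TGF-β, against 748 and 617 in the control. All 3 probe sets were thus higher, by between 2.61-fold and 2.85-fold. SLC26A11, another sulfate carrier of the same family, read 780 with TGF-β and 629 in the control, and SLC35B3, which brings the activated sulfate donor PAPS into the Golgi, read 1122 with TGF-β and 1226 in the control. Among other carriers for glycan building, SLC35A2, the UDP-galactose carrier, read 2471 with TGF-β and 2412 in the control. SLC35A3, the carrier for UDP-N-acetylglucosamine, was 1.52-fold lower, at 489 with TGF-β and 745 in the control. Of the 22 SLC35 members, 1 was at least 2-fold higher, none was at least 2-fold lower, and 21 were neither. Of all genes, 3.07% were at least 2-fold higher and 1.58% at least 2-fold lower.

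The monocarboxylate family SLC16, whose best known members move lactate and pyruvate, held members that changed in opposite directions. Its genes were grouped by family number and not by their own substrate. SLC16A4 (MCT5) read 3158 with TGF-β and 1300 in the control, a 2.43-fold rise measured by 1 probe set. SLC16A7 (MCT2), a carrier of high affinity for pyruvate and lactate, read 674 with TGF-β and 1587 in the control, a 2.36-fold fall, or -1.24 on the log2 scale. All 5 of its probe sets above the signal limit were lower, by between 1.75-fold and 2.40-fold. SLC16A14 lay just under the 2-fold limit, at 2597 with TGF-β and 5141 in the control, which is 1.98-fold lower. SLC16A5 (MCT6) read 484 with TGF-β and 562 in the control. The noncoding RNA SLC16A1-AS1 read 151 with TGF-β and 98.8 in the control. SLC16A1 itself and SLC16A3 had no probe set annotated with their symbol alone and were not analysed here.

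Members of the SLC22 family, which includes carriers of organic cations and carnitine, were mostly higher, though none by 2-fold. SLC22A5 (OCTN2), which takes up carnitine, read 1561 with TGF-β and 959 in the control, a 1.63-fold difference. SLC22A4 (OCTN1), known for ergothioneine uptake, read 340 with TGF-β and 204 in the control, or 1.66-fold higher. SLC22A23, whose substrate is not known, read 1198 with TGF-β and 692 in the control, or 1.73-fold higher, but its other probe set above the signal limit read 106 with TGF-β and 138 in the control. Of the 5 SLC22 members, 3 were at least 1.5-fold higher, as were 7.7% of all genes, and the median log2 fold change was 0.70. The other members read 114 with TGF-β and 96.6 in the control (SLC22A7) and 160 with TGF-β and 188 in the control (SLC22A25).

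**Figure D2:**
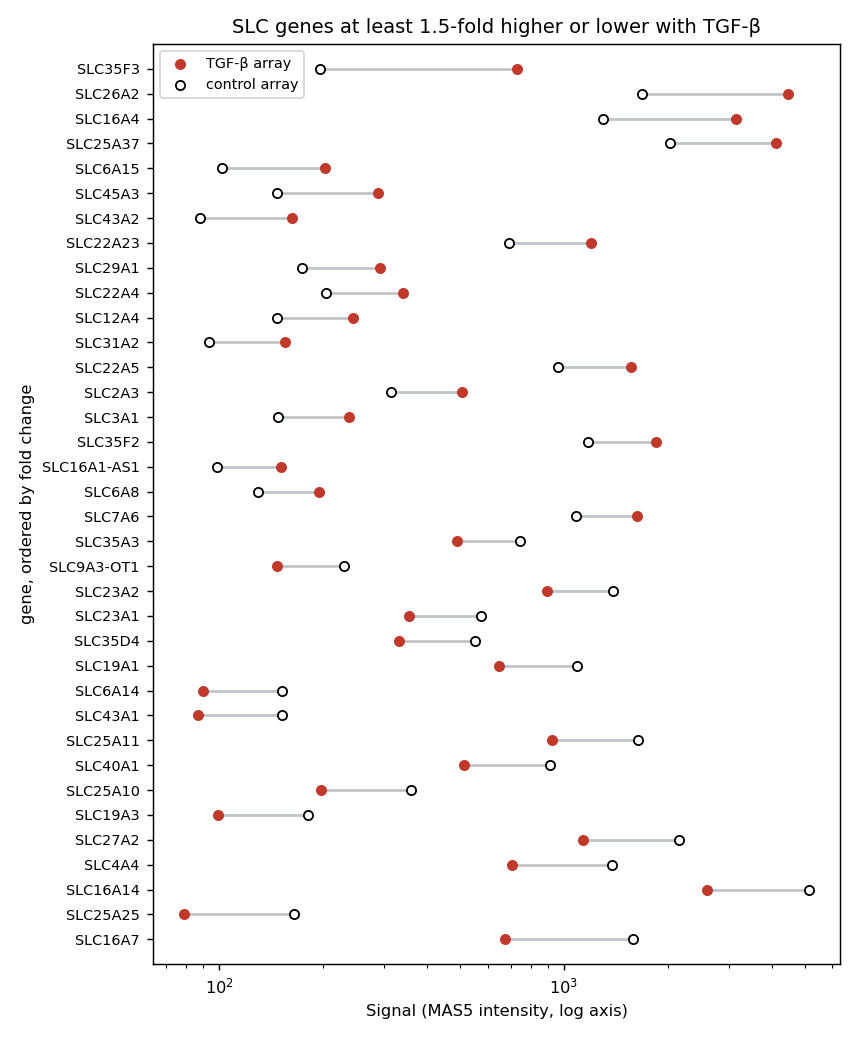
Signals of the 36 SLC genes that were at least 1.5-fold higher or lower, as MAS5 intensities on a log axis, with 1 gene per line ordered by fold change. Red points are the TGF-β array and open points the control array, each a single measurement, and the 19 higher genes stand above the 17 lower ones.

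The mitochondrial carriers of the SLC25 family, which exchange metabolites and ions across the inner membrane, made up the largest class, with 33 carriers and the noncoding RNA SLC25A25-AS1. SLC25A37 (mitoferrin-1), the iron importer of mitochondria, read 4117 with TGF-β and 2026 in the control, a 2.03-fold rise. All 9 of its probe sets above the signal limit were higher, by between 1.37-fold and 2.52-fold, and the median over them was just under 2-fold, with a log2 fold change of 0.995. SLC25A28 (mitoferrin-2), its close relative, read 562 with TGF-β and 624 in the control. SLC25A25, a carrier of ATP-Mg and phosphate, read 79.0 with TGF-β and 164 in the control, a 2.08-fold fall at low signal, where the spread was 0.50. With 50 added to every signal its fall was 1.66-fold. Among its relatives, SLC25A24 read 6092 with TGF-β and 4803 in the control. SLC25A23 read 225 with TGF-β and 333 in the control, while its other probe set above the limit read 109 with TGF-β and 101 in the control.

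Carriers of dicarboxylates in the same family were lower without reaching 2-fold. SLC25A10, the dicarboxylate carrier, read 197 with TGF-β and 359 in the control, or 1.82-fold lower. SLC25A11, the oxoglutarate carrier, read 920 with TGF-β and 1634 in the control, or 1.78-fold lower, and its other probe set gave 620 with TGF-β and 1094 in the control. SLC25A12 and SLC25A13, the aspartate-glutamate carriers, read 775 and 2058 with TGF-β, against 1045 and 2457 in the control. The abundant-transcript carriers SLC25A3, for phosphate, and SLC25A5, for ADP and ATP, read 25629 and 24785 with TGF-β, against 23113 and 22287 in the control. Of the 33 mitochondrial carriers, 25 had a log2 fold change below 0, or 75.8%, against 54.3% of all genes, with a median of -0.15. SLC25A25-AS1 was below 0 as well, which makes 26 of the class of 34. With the arrays scaled to equal medians, 23 of the 34 were below 0, against 47.3% of all genes. Of the 34, 3 were at least 1.5-fold lower with and without each scaling tried. Of all 10558 genes, 6.38% were at least 1.5-fold lower without further scaling. With median, quantile and loess scaling, 575, 645 and 605 of the 10558 were. No result about the class is read from this count.

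**Figure D3:**
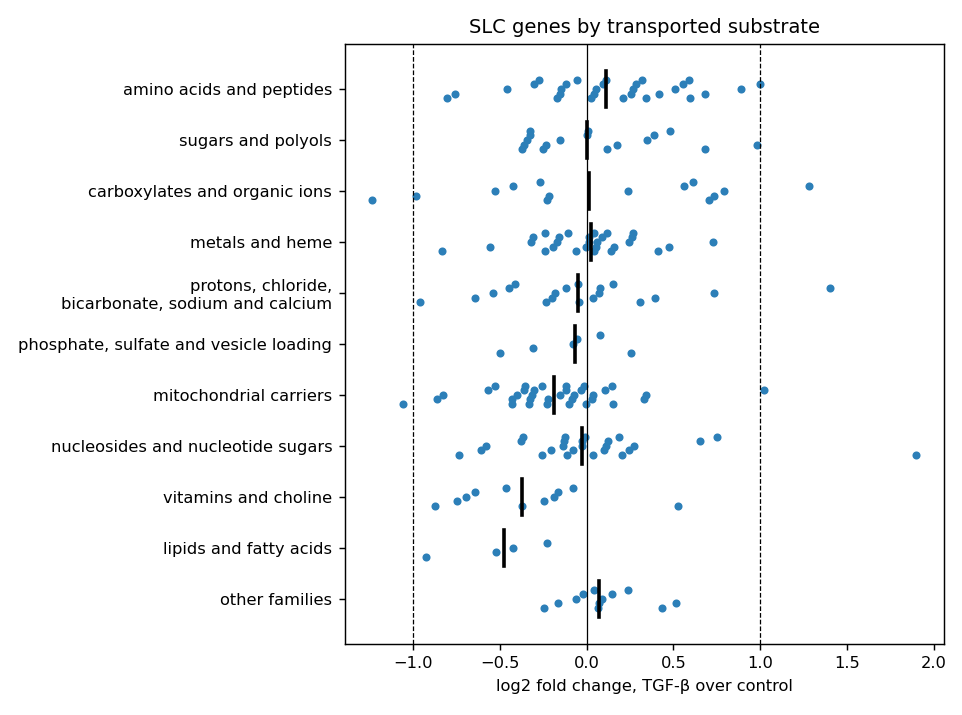
Log2 fold changes (TGF-β over control, x axis) of the 200 SLC genes by the substrate class of their family number (rows), noncoding members included. Each point is a gene by its brightest probe set, black bars are medians, the solid line marks no difference and dashed lines 2-fold. The medians are lowest for the 4 members grouped as lipid carriers (-0.48) and the 11 vitamin and choline carriers (-0.37).

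Vitamin and choline carriers, grouped by family number, had log2 fold changes below 0 in 10 of 11 members. Of all genes, 54.3% were below 0. The median of the 11 was -0.37, and none reached 2-fold. Of these 11, 4 were at least 1.5-fold lower, as were 6.38% of all genes. With SLC5A6, a carrier of biotin and pantothenate that its family number placed among the sugars, 10 of 12 were below 0 and the median was -0.31. No other gene was moved into this class by its own substrate, so the counts depend on the grouping by family number. SLC23A1 and SLC23A2, the sodium-driven carriers of vitamin C, read 355 and 891 with TGF-β, against 575 and 1391 in the control, or 1.62-fold and 1.56-fold lower. All 3 probe sets of SLC23A2 above the signal limit were lower. SLC19A1, the reduced folate carrier, read 647 with TGF-β and 1088 in the control, or 1.68-fold lower, while its other probe sets above the limit read 304 and 124 with TGF-β, against 343 and 158 in the control. The thiamine carriers of the SLC19 family differed in direction. SLC19A3 read 98.9 with TGF-β and 181 in the control, and SLC19A2 read 2302 with TGF-β and 1600 in the control. SLC44A1, a choline carrier, read 2130 with TGF-β and 2756 in the control, and its 5 probe sets above the limit all read below the control, by 1.09-fold to 1.55-fold. The count of 10 below 0 was the same after scaling to equal medians, by quantiles and by loess.

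The SLC27 family encodes proteins that take up fatty acids and join them to coenzyme A, and its 3 members above the signal limit read below the control. SLC27A2, which acts on very long fatty acids, read 1133 with TGF-β and 2150 in the control, or 1.90-fold lower, and its other probe set read 814 with TGF-β and 1619 in the control. SLC27A5 read 316 with TGF-β and 455 in the control, and SLC27A4 read 256 with TGF-β and 344 in the control. SLC61A1, placed beside them by its family number and known as a molybdate carrier, read 891 with TGF-β and 1045 in the control.

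None of 26 carriers of amino acids and peptides passed 2-fold. Of these, 16 had a log2 fold change above 0 and 10 below, with a median of 0.08, where 54.3% of all genes were below 0. Of the 26, 4 were at least 1.5-fold higher, against 7.7% of all genes, and 2 at least 1.5-fold lower, against 6.38%. The dopamine carrier SLC6A3, the creatine carrier SLC6A8 and SLC7A6OS share these families and are not among the 26. SLC6A15, a sodium-driven carrier of branched-chain amino acids and proline, read 203 with TGF-β and 102 in the control, which is 1.997-fold higher. It reached 2-fold after scaling to equal medians, after quantile normalization and after loess. SLC43A2 (LAT4), a carrier of large neutral amino acids, read 163 with TGF-β and 88.0 in the control, and its other probe set read 158 with TGF-β and 90.6 in the control. SLC43A1 (LAT3), its relative, went the other way, with 87.0 with TGF-β and 152 in the control. SLC7A6, which exchanges basic for neutral amino acids, was just over 1.5-fold higher, at 1633 with TGF-β and 1086 in the control, and its other probe sets read 565 and 496 with TGF-β, against 307 and 339 in the control. SLC6A8 read 195 with TGF-β and 129 in the control. SLC3A1, the heavy chain of the cystine carrier of the kidney, read 237 with TGF-β and 148 in the control. Both of these were at least 1.5-fold higher. SLC7A1 (CAT-1), the main carrier of arginine, read 6849 with TGF-β and 4811 in the control. The 3 SLC7A1 probe sets above the limit were all higher, by between 1.14-fold and 1.82-fold. SLC6A6, the taurine carrier, read 2766 with TGF-β and 3808 in the control, while its second probe set read 307 with TGF-β and 174 in the control, so its direction is not settled.

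Of 9 carriers known to be induced by the amino acid response through ATF4, 7 were members. By their brightest probe sets all 7 differed by less than 1.5-fold, with a median log2 fold change of 0.21. SLC7A11, the cystine-glutamate exchanger, read 12236 with TGF-β and 11307 in the control. SLC7A5 (LAT1), which takes up leucine, read 20234 with TGF-β and 17529 in the control, and SLC3A2, the heavy chain it pairs with, read 6887 with TGF-β and 6631 in the control. SLC38A2, a glutamine and alanine carrier, read 13044 with TGF-β and 10291 in the control. SLC1A5, another glutamine carrier, was the only one of the 7 below 0, at 1491 with TGF-β and 1838 in the control. SLC7A3 and SLC6A9 did not reach the signal limit.

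Among glucose carriers, 1 passed 1.5-fold. SLC2A1 (GLUT1) read 2334 with TGF-β and 1671 in the control, a ratio of 1.40. SLC2A3 (GLUT3) read 506 with TGF-β and 315 in the control, or 1.61-fold higher, while its other probe sets gave ratios of 1.16 and 1.19. SLC45A3, a relative of sucrose carriers, lay just under 2-fold, at 289 with TGF-β and 147 in the control, and another of its probe sets read 82.1 with TGF-β and was below background in the control, at 5.60. Of 15 members of the sugar carrier families, from which SLC2A4RG and the vitamin carrier SLC5A6 were left out, none reached 2-fold. Of the 15, 2 were at least 1.5-fold higher, against 7.7% of all genes, and none was at least 1.5-fold lower, against 6.38%.

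**Figure D4:**
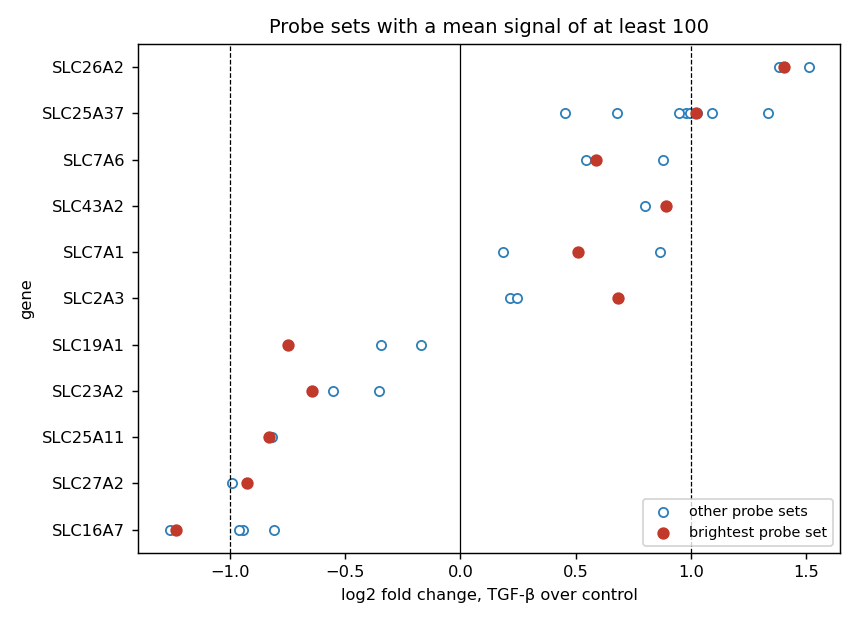
Log2 fold changes (TGF-β over control, x axis) of single probe sets above the signal limit of 100 for 11 SLC genes (rows) with several of them, picked with values known. For each gene drawn all of them lie on the same side of 0. Genes whose probe sets disagree in direction, such as SLC22A23 and SLC6A6, are not drawn. Over the 85 members with several, the brightest and the next had the same sign in 62. Red points are the brightest probe set, which represents the gene, open points the others, and dashed lines mark 2-fold. The 9 probe sets of SLC25A37 and the 3 of SLC26A2 are all above 0 and the 5 of SLC16A7 all below 0.

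None of 28 metal carriers passed 2-fold, and 25 lay within 0.5 of 0 on the log2 scale, as did 81.8% of all genes. SLC40A1 (ferroportin), the iron exporter, read 511 with TGF-β and 911 in the control, or 1.78-fold lower, and its dimmer probe set read 32.3 with TGF-β, below background, and 68.0 in the control. SLC11A2 (DMT1), which takes up iron, read 1205 with TGF-β and 1493 in the control, and SLC39A14 (ZIP14), which brings in zinc and iron, read 7479 with TGF-β and 6697 in the control. SLC30A1 (ZnT1), the zinc exporter of the plasma membrane, read 8351 with TGF-β and 6289 in the control. All 11 members of the zinc importer family SLC39 lay between -0.56 and 0.25 on the log2 scale. SLC31A2, linked to copper, read 155 with TGF-β and 93.5 in the control.

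Of 9 listed carriers known from airway and alveolar epithelium, 3 were above the signal limit, and these 3 read below the control. Of all genes, 54.3% had a log2 fold change below 0. SLC4A4 (NBCe1), the sodium bicarbonate carrier, read 708 with TGF-β and 1379 in the control, or 1.95-fold lower. SLC12A2 (NKCC1), which brings sodium, potassium and chloride into the cell, read 3068 with TGF-β and 4464 in the control, a ratio of 0.687, and the divergent transcript SLC12A2-DT read 330 with TGF-β and 439 in the control. SLC6A14, an amino acid carrier of airway epithelium, read 89.7 with TGF-β and 152 in the control. It reached the limit on the mean signal through its control signal, so its selection favoured a fall. None of these 3 coding genes passed 2-fold. SLC34A2, the phosphate carrier of alveolar type II cells, was below background on both arrays, at 31.8 with TGF-β and 32.5 in the control. Of the listed genes under the limit, SLC15A2, SLC26A4, SLC5A8 and SLC9A3 read above the control, though below background on both arrays. SLC26A9 read below the control and was above background only there. Of the 5 epithelial markers, 2 read above the control (KRT8 and KRT18) and 3 below it (KRT19, EPCAM and CDH1). KRT8 read 19630 with TGF-β and 16817 in the control, EPCAM read 1616 with TGF-β and 2176 in the control, and KRT19 read 991 with TGF-β and 1492 in the control. CDH1 was the only one at least 2-fold lower, at 846 with TGF-β and 1952 in the control. The part of these markers in the carriers' values was not tested. In the opposite direction, SLC12A4 (KCC1), a potassium chloride exporter, read 244 with TGF-β and 147 in the control, and the bicarbonate carrier SLC4A7 read 2203 with TGF-β and 1674 in the control.

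SLC29A1 (ENT1), which lets nucleosides pass, read 293 with TGF-β and 174 in the control, or 1.68-fold higher by its brightest probe set. Its other probe set read 308 with TGF-β and 144 in the control, a 2.13-fold rise. SLC35F2, of the same family as SLC35F3, read 1847 with TGF-β and 1172 in the control. SLC20A1, a phosphate carrier, read 6100 with TGF-β and 5101 in the control. The other members past 1.5-fold were SLC35D4, at 332 with TGF-β and 551 in the control, and the noncoding SLC9A3-OT1, at 148 with TGF-β and 230 in the control, both lower. None of the 6 members of the families SLC17, SLC18, SLC20 and SLC34, which serve phosphate uptake and the loading of vesicles and lysosomes, passed 1.5-fold.

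The probe sets of a gene gave a check of the values within the arrays. Of the 200 members, 85 had at least 2 probe sets above the signal limit. The brightest and the next had log2 fold changes of the same sign in 62 of these, or 72.9%, and differed by less than 0.5 in 76, or 89.4%. Over all 4892 genes with such pairs the shares were 70.1% and 87.8%. Of the 36 members at least 1.5-fold changed, 15 had several such probe sets, and in 14 of the 15 all pointed the same way. SLC22A23 was the exception.

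Transport genes outside the SLC symbols were read from lists. Of 44 carriers with other names, 28 reached the signal limit. Of these 28, none was at least 2-fold higher, against 3.07% of all genes, and 1 was at least 2-fold lower, against 1.58%. The lower one, SLCO4A1, an organic anion carrier for thyroid hormone, read 56.9 with TGF-β, at the edge of background, and 291 in the control. Of 17 ABC transporters that reached the signal limit, which use ATP directly, 2 were at least 2-fold higher and none was at least 2-fold lower, where 3.07% of all genes were at least 2-fold higher. ABCA1, the cholesterol exporter, read 283 with TGF-β and 108 in the control, and ABCG1, its partner in sterol export, read 327 with TGF-β and 149 in the control. ABCG2 and ABCC2, drug exporters, read 956 and 1771 with TGF-β, against 1877 and 3519 in the control, and neither reached 2-fold. Among 12 partners and regulators of carriers, PDZK1, a scaffold that holds carriers at the membrane, was 2.14-fold higher, at 221 with TGF-β and 103 in the control. Of 19 subunits of the sodium pump and the proton pump, none passed 1.5-fold. Of all genes, 7.7% were at least 1.5-fold higher and 6.38% at least 1.5-fold lower. ATP1B1, a sodium pump subunit, read 13601 with TGF-β and 17724 in the control.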

How the data were processed

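RNA of A549 cells kept 12 h with TGF-β at 1 ng/ml and of control cells went onto 1 array each. The authors deposited 1 linear intensity for each probe set, made with MAS5 according to the submitters' processing notes. Its version and any further steps were not given in the sources used here. The 2% trimmed mean was 500 on each array, so the arrays shared a scale, and no further scaling was done. Of 54675 probe sets, 62 were controls, 41091 had 1 symbol, 1801 had several and 11721 were not listed and stay unnamed here. SLC symbols matched the RefSeq annotation of GRCh38.p14.

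Members and lists were chosen with earlier results of these data known. A gene was called at 2-fold or 1.5-fold, which are rules of size. Background is the highest of 27 Bacillus subtilis probe sets of an array, so folds of dimmer signals are given against it. Substrate classes follow family numbers. The rule for named genes took members at 2-fold (up to 15 each way), the brightest and the most changed of each class, the genes nearest to the limit, up to 3 most changed of each list and members whose probe sets disagreed at 2-fold. Genes named beyond it were chosen after their values were seen. Scripts were tested on simulated data. Tools were pandas 2.3.3 with numpy 2.4.6 in Python 3.11.15, statsmodels 0.14.6, scipy 1.17.1 and matplotlib 3.10.9. Alternatives were other signal limits, a floor at background, an offset of 50, median, quantile and loess scaling, other choices of probe set, current symbols, the class counts under each scaling and counts over carriers alone, the last 2 chosen once the values were known.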

Additional observations from a re-analysis of the deposited data

How the results depend on the processing

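Variation between cultures could not be measured with 1 array in each condition. The 4 members at least 2-fold higher and 2 at least 2-fold lower became 34 and 46 of 376 genes with no limit on the signal, and 19 and 17 at 1.5-fold. The lower members numbered 7 with the limit at the median over probe sets (48.7), and 1 with a limit of 200, with the limit at the 75 percentile (349), with 50 added to every signal and with the median over probe sets. A limit or an offset alters dim signals by its construction. With the median over probe sets, the member that no longer reached 2-fold lower was SLC16A7. Under the other alternatives the higher count lay between 3 and 6. SLC35F3, SLC26A2 and SLC16A4 passed 2-fold under all 14 settings with a value. SLC25A37 had a log2 fold change of 0.995 and SLC16A7 of -0.96 with the median over probe sets, and SLC25A25 of -0.73 with the offset. The median log2 fold change of the members lay between -0.12 and -0.01. For 33 named genes, 398 of 407 values under alternatives moved by less than the spread over probe sets of like signal. The other 9 (in 7 genes) moved by more. Reversals were counted only for genes at least 2-fold changed, and there were 0. Smaller differences could change sign, as for SLC60A2, at 0.35 by its brightest probe set and -0.43 by its other one above the limit. Current symbols gave the same genes. No paired analysis was possible because each condition has 1 array.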

Other observations

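The 176 SLC genes under the signal limit were read against the background. In 127 of them both signals were at or below it. With signals under the background raised to it, 1 of the 176 was at least 2-fold higher and 1 at least 2-fold lower. SLC17A9, which loads ATP into vesicles, read 130 with TGF-β and 57.6 in the control, a 2.25-fold rise at low signal. SLC51B, a subunit of the steroid and bile acid exporter OST, read 5.37 with TGF-β, below background, and 157 in the control, so it was at least 2.77-fold lower. Both genes were picked after their values were seen, and each rests on 1 array per condition.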
